A study of Rattus norvegicus with 18 samples.

Results

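miR-199a and miR-214 are microRNAs, short RNAs that guide repressor proteins to messenger RNAs with a matching site. Each is cut from a hairpin precursor whose left side gives the 5p product and whose right side gives the 3p product. The 4 rows named rno-miR-199a-5p, rno-miR-199a-3p, rno-miR-214-5p and rno-miR-214-3p (rno stands for rat) were taken by name from a small RNA count table of 753 miRNA rows. Of these 4 rows, 3 passed the detection filter of more than 10 counts in at least 6 of 18 libraries, as did 373 rows of the whole table, and miR-214-5p did not.

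The libraries came from C6-8 dorsal root ganglia (DRG), which hold the cell bodies of forelimb sensory neurons, taken whole from adult Lister Hooded rats. Unoperated rats (naïve) were compared with rats whose corticospinal tracts had been cut on both sides in the medullary pyramids (bilateral pyramidotomy, bPYX). The injured rats received AAV1, an adeno-associated viral vector, in the forelimb flexor muscles of 1 side a day later. The vector carried a transgene behind the CMV promoter, which is active in many cell types, encoding green fluorescent protein (bPYX+GFP) or the precursor of human neurotrophin-3 (bPYX+NT3). Each group had 6 rats with 1 library each, and the ganglia of injured rats were taken 10 weeks after the injury. Naïve rats had neither the surgery nor a vector, so the effects of injury and vector cannot be told apart in comparisons with them.

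In other mammals miR-199a-2 and miR-214 are released from a single long non-coding RNA, Dnm3os, which runs opposite to the dynamin gene Dnm3. Dnm3os is known from mesenchymal cells such as fibroblasts, bone-forming cells and cells of the vessel wall, and both miRNAs have been studied in fibrosis and skeletal development. A DRG holds fibroblasts and vessel-wall cells in its capsule and between its neurons and satellite glia. The counts are of small RNA from whole ganglia, so the cells that held these miRNAs were not determined. In such bulk samples fewer cells of a type and less RNA per cell cannot be told apart.

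The mature sequences are shown because their first bases set which messages a miRNA can pair with. They are RefSeq entries of the rat assembly GRCr8, written 5′ to 3′ with the seed, bases 2 to 8, in capitals.
rno-miR-199a-5p: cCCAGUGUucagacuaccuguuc
rno-miR-199a-3p: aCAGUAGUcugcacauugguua
rno-miR-214-3p: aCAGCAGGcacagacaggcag
rno-miR-214-5p: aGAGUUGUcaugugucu

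The seeds of the 4 members differed from each other, and no other of the 724 mature entries shared the seed of any of them. Each of the 4 sequences belonged to 1 gene in those entries. In GRCr8 all lie on the plus strand of chromosome 13. miR-199a-5p is at chr13:77116255-77116277 and miR-199a-3p at chr13:77116294-77116315, inside the gene Mir199a2. miR-214-5p is at chr13:77121656-77121672 and miR-214-3p at chr13:77121713-77121733, inside Mir214. Both miRNA genes lie within Dnm3, which is on the minus strand. The reads had been aligned to the older assembly Rnor_5.0 and the count table holds no positions, so these coordinates belong to the sequences and not to the counts.

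Sequencing gave 4.70 ± 0.66 M miRNA counts a library (SD, n = 18, from 3.88 to 6.92 M). These were 34.9% of all reads on average, and a further 31.4 ± 1.88% (SD, n = 18) had been dropped by the authors' counting for low alignment quality, which happens to reads that fit several places in a genome. In other mammals the miR-199 products have near-identical copies in other dynamin genes, so such losses could touch miR-199a, and their part in its counts was not tested. The levels below are CPM, the counts of a miRNA for each 1 M miRNA counts of its library, scaled between libraries by edgeR's trimmed mean of M-values (TMM). No 2 libraries of a group were copies of each other: the smallest chi-square per degree of freedom between such libraries was 37.3, where sampling alone gives about 1.

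The 3 detected members lay at levels far apart from each other. miR-199a-5p took 0.150% of all miRNA counts and ranked 50 of the 753 rows by mean CPM, between 42 and 58 in single libraries. miR-214-3p took 0.0219% and ranked 122, between 112 and 132. miR-199a-3p took 0.00426% and ranked 212, between 200 and 232. The rank ranges of the 3 members did not overlap in the 18 libraries. Capture of a small RNA depends on its ends and sequence, so levels of different miRNAs are set side by side as read counts, not as molecule numbers.

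rno-miR-199a-5p ranged from 1423 to 2126 CPM in naïve ganglia, with a median of 1584. In bPYX+GFP it ranged from 1167 to 1569.7, with a median of 1458, and in bPYX+NT3 from 1291 to 1568.6, with a median of 1437. Naïve replicate 2 stood highest of all 18 libraries and bPYX+GFP replicate 5 lowest, and the ranges of the groups overlapped. All 12 libraries of injured rats lay below the naïve median.

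rno-miR-199a-3p ranged from 32.3 to 53.4 CPM in naïve ganglia, with a median of 43.6. It ranged from 35.2 to 55.1 in bPYX+GFP, with a median of 41.6, and from 32.5 to 48.8 in bPYX+NT3, with a median of 43.8. The 3 groups covered nearly the same range. These values rest on 132 to 347 counts a library.

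rno-miR-214-3p ranged from 172 to 286 CPM in naïve ganglia, with a median of 218. It ranged from 182.9 to 269.7 in bPYX+GFP, with a median of 200.2, and from 194 to 252 in bPYX+NT3, with a median of 227. Naïve replicate 2 was again the highest library and naïve replicate 3 the lowest. In bPYX+GFP, replicates 1 and 2 lay at 256 and 269.7 CPM and the other 4 libraries at 205 or below.

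**Figure D1:**
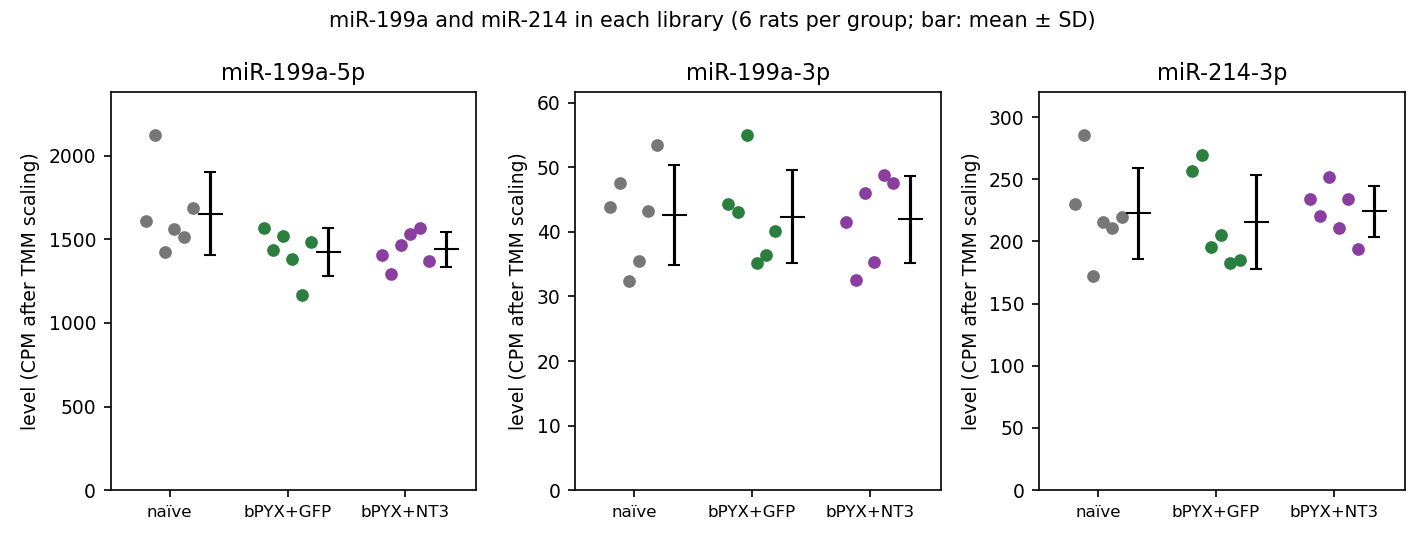
Level of miR-199a-5p, miR-199a-3p and miR-214-3p in each library (y axes, CPM after TMM scaling, each starting at 0), by group (x axis). Points are rats in order of replicate number, and bars show the mean ± SD of 6 rats. The groups overlap in each panel, and the highest naïve value of miR-199a-5p, 2126 CPM, stands above the other 17 libraries.

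The first comparison asked how the DRG of rats with the injury and the control vector differed from those of unoperated rats. miR-199a-5p was lower in bPYX+GFP, at 1426 ± 142.6 CPM against 1653 ± 249 CPM in naïve (SD, n = 6 each), a log2 fold change of -0.21 ± 0.10 (SE). The 95% interval of this difference was -0.42 to -0.01. It did not pass the test over all miRNAs (edgeR quasi-likelihood test, adjusted p = 0.232, unadjusted p = 0.0416, lower than the naïve mean in 6 of 6 libraries). By its p it ranked 65 of the 373 rows tested.

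The other 2 detected members showed smaller differences between bPYX+GFP and naïve. miR-214-3p was at 216 ± 37.6 CPM in bPYX+GFP and 222.6 ± 36.8 CPM in naïve (SD, n = 6 each), a log2 fold change of -0.04 ± 0.13 (SE). Its 95% interval was -0.31 to 0.22 (edgeR, adjusted p = 0.916). miR-199a-3p was at 42.3 ± 7.18 CPM in bPYX+GFP and 42.7 ± 7.72 CPM in naïve (SD, n = 6 each), with a log2 fold change of -0.01 ± 0.14 (SE), an interval of -0.30 to 0.28 and an edgeR adjusted p of 0.983. The sign of this last difference turned positive with median-of-ratios factors, with library size alone and in DESeq2.

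None of the 3 members passed an adjusted p of 0.05 in edgeR or in DESeq2 between bPYX+GFP and naïve, against 2.41% of all rows tested in edgeR and 5.91% of the 372 rows with an adjusted p in DESeq2. At an unadjusted p of 0.05, 1 of 3 passed in edgeR, against 21.2% of all rows tested. None passed in DESeq2, where 73 of the rows tested did. Rows higher in bPYX+GFP at that unadjusted p were 10.7% of those tested and lower rows 10.5%. None of the 3 had groups that did not overlap, against 4.02% of all rows. The median log2 fold change was -0.04 over the 3 members and 0.0036 over all 373 rows.

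The unadjusted p of miR-199a-5p did not stay under 0.05 throughout. It was 0.0508 with median-of-ratios factors, 0.0525 with library size alone and 0.0609 in DESeq2. It was 0.118 without naïve replicate 2, where the log2 fold change was -0.13. It lay between 0.0517 and 0.0726 without naïve replicate 1 or 6, or without bPYX+GFP replicate 2, 4 or 5. The adjusted p ranged from 0.186 to 0.368 over all alternatives.

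The second comparison asked whether neurotrophin-3 in the muscle of injured rats changed these miRNAs in the ganglia. The 3 members had nearly the same mean levels in bPYX+NT3 and bPYX+GFP. miR-199a-5p was at 1439 ± 104 CPM in bPYX+NT3 (SD, n = 6), a log2 fold change of 0.03 ± 0.08 (SE) over bPYX+GFP with a 95% interval of -0.15 to 0.20 (edgeR, adjusted p = 0.936). miR-214-3p was at 224 ± 20.3 CPM (SD, n = 6), a log2 fold change of 0.06 ± 0.12 (SE) with an interval of -0.20 to 0.32 (edgeR, adjusted p = 0.879). miR-199a-3p was at 41.96 ± 6.75 CPM (SD, n = 6), a log2 fold change of -0.0022 ± 0.13 (SE) with an interval of -0.28 to 0.27 (edgeR, adjusted p = 0.994).

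None of the 3 members passed in bPYX+NT3 against bPYX+GFP at an adjusted or an unadjusted p of 0.05, in edgeR or in DESeq2. Over all rows tested, edgeR called 0% at the adjusted and 8.58% at the unadjusted threshold (5.09% higher in bPYX+NT3 and 3.49% lower), and 0% had groups that did not overlap. DESeq2 called 0% at the adjusted threshold and 33 of the rows tested at the unadjusted one. The median log2 fold change was 0.03 over the 3 members and -0.00042 over all rows.

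The third comparison set the injured rats with neurotrophin-3 against unoperated rats, and it shares its naïve libraries with the first. miR-199a-5p gave a log2 fold change of -0.20 ± 0.09 (SE) with an interval of -0.40 to 8.9e-05 (edgeR, adjusted p = 0.349, unadjusted p = 0.0501), and all 6 bPYX+NT3 libraries lay below the naïve mean. miR-214-3p gave 0.01 ± 0.11 (SE) with an interval of -0.22 to 0.24 (edgeR, adjusted p = 0.974). miR-199a-3p gave -0.02 ± 0.14 (SE) with an interval of -0.32 to 0.28 (edgeR, adjusted p = 0.955). None of the 3 members passed an adjusted p of 0.05 in either tool, against 0% of all rows in edgeR and 0.269% (1 row) in DESeq2. None passed an unadjusted p of 0.05 in either tool, against 13.7% of all rows in edgeR (7.24% higher in bPYX+NT3 and 6.43% lower). In DESeq2, 56 of the rows tested passed it. No member had groups that did not overlap, against 1.34% of all rows. The unadjusted p of miR-199a-5p fell to 0.0412 in a fit of all 3 groups, to 0.0237 without naïve replicate 3 and to 0.0389 without bPYX+NT3 replicate 5. It rose to 0.197 with library size only, to 0.178 and 0.175 without bPYX+NT3 replicate 2 or 1, and to 0.146 without naïve replicate 2, where the log2 fold change was -0.11.

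**Figure D2:**
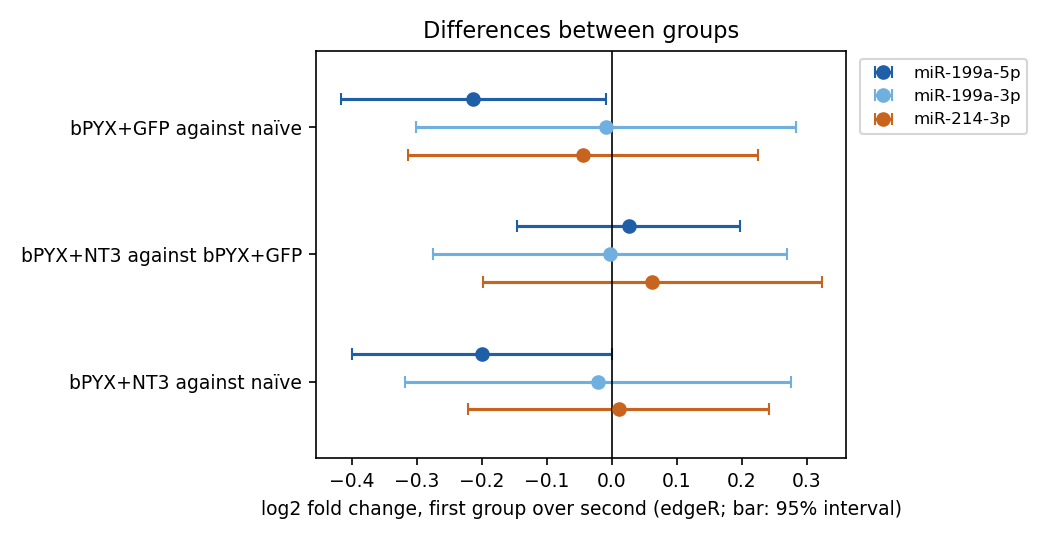
Log2 fold change of the 3 detected members in each comparison (x axis, edgeR estimates, first group over second), with bars for the 95% interval. The intervals of miR-199a-3p and miR-214-3p span 0 in each comparison, and that of miR-199a-5p lies just below 0 for bPYX+GFP against naïve, from -0.42 to -0.01.

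Both arms of miR-199a were compared within each library, where their ratio does not depend on the scaling between libraries. The 5p arm gave 27.6 to 44.7 counts for each count of the 3p arm. The 3p arm made up 2.52 ± 0.37% of miR-199a counts in naïve, 2.88 ± 0.36% in bPYX+GFP and 2.83 ± 0.41% in bPYX+NT3 (SD, n = 6 each). The lowest share, 2.19% (Wilson 95% interval 1.90 to 2.51%), was in naïve replicate 2, and the highest, 3.50% (3.15 to 3.87%), in bPYX+GFP replicate 3. These intervals cover counting error only, and those of the lowest and highest libraries did not overlap.

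The log2 ratio of miR-199a-3p to miR-199a-5p was 0.20 higher in bPYX+GFP than in naïve, with 5 of 6 libraries above the naïve mean. This difference did not pass a two-sided exact permutation test over all splits of 6 against 6 (p = 0.106, adjusted p = 0.273 over 6 ratio tests). With each library left out in turn, the exact p ranged from 0.0433, without naïve replicate 6, to 0.212, without bPYX+GFP replicate 3. Between bPYX+NT3 and naïve the log2 ratio was 0.17 higher in bPYX+NT3 (exact permutation p = 0.186, adjusted p = 0.279), and it differed by -0.03 between bPYX+NT3 and bPYX+GFP (exact permutation p = 0.784).

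miR-199a and miR-214 were also set against each other within libraries. Each count of miR-214 went with 7.65 ± 0.46 counts of miR-199a in naïve, 6.92 ± 1.05 in bPYX+GFP and 6.64 ± 0.66 in bPYX+NT3 (SD, n = 6 each). In naïve the ratio ranged from 7.16 to 8.44 with a median of 7.50, in bPYX+GFP from 5.48 to 8.21 with a median of 6.75, and in bPYX+NT3 from 6.00 to 7.46 with a median of 6.55. The groups overlapped, and bPYX+GFP covered nearly the whole span of the 18 libraries.

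The mean log2 ratio of miR-199a to miR-214 was 2.73 ± 0.14 in bPYX+NT3 and 2.93 ± 0.09 in naïve (SD, n = 6 each), a difference of -0.21 with 6 of 6 bPYX+NT3 libraries below the naïve mean. Its two-sided exact permutation p was 0.0152, and it missed the threshold after adjustment over the 6 ratio tests (adjusted p = 0.0909). The unadjusted exact p ranged from 0.0087 to 0.030 when each library in turn was left out. Against naïve, bPYX+GFP differed by -0.16 (exact permutation p = 0.136, adjusted p = 0.273). With each library left out in turn, this exact p was lowest, at 0.0476, without bPYX+GFP replicate 6. It was highest, at 0.273, without bPYX+GFP replicate 2, where the difference was -0.092. Between bPYX+NT3 and bPYX+GFP the difference was -0.05 (exact permutation p = 0.628, adjusted p = 0.753).

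**Figure D3:**
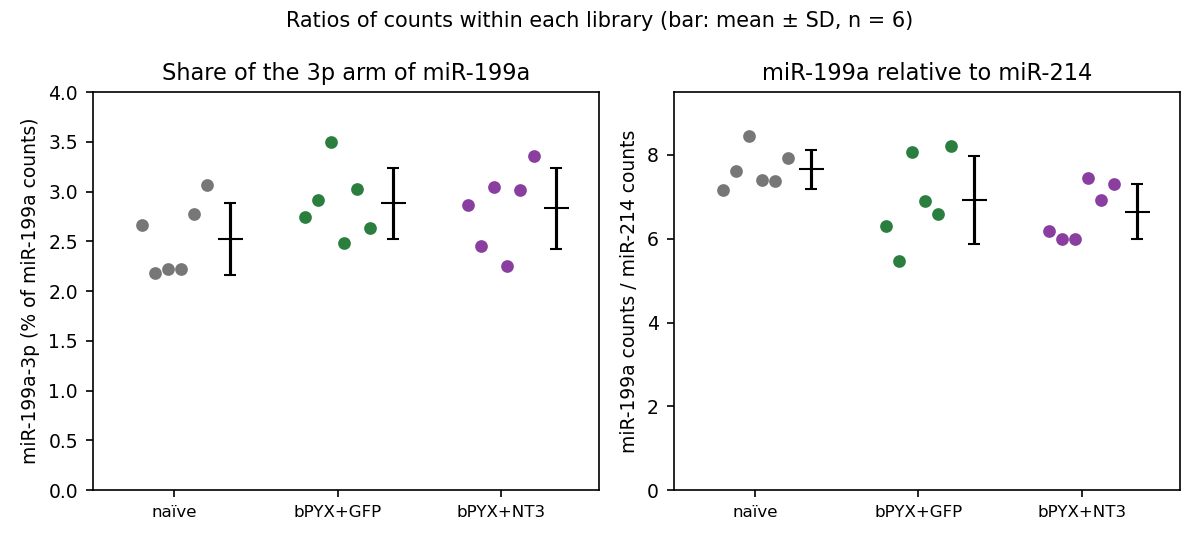
Share of the 3p arm in all miR-199a counts (left, percent) and counts of miR-199a for each count of miR-214 (right), for each library by group, with bars for the mean ± SD of 6 rats. The 3p share stays between 2.19 and 3.50%, and the ratio of miR-199a to miR-214 lies between 5.48 and 8.44.

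rno-miR-214-5p had 0 counts in each of the 18 libraries, which together held 84.6 M miRNA counts. A count of 0 allows up to 3 counts, or 0.0355 CPM over all libraries and 0.434 to 0.773 CPM in single libraries, before TMM scaling. miR-214-3p was at least 263-fold to 413-fold higher than that limit within single libraries, with a median of 349-fold. In all, 181 rows of the table were at 0 in each of the 18 libraries. Of 280 pairs of arms in the table, 93 had a stronger arm at least as abundant as miR-214-3p, and in 6 of these the other arm was at 0 throughout. These 6 were miR-126a, miR-191a, miR-214, miR-382, miR-409a and miR-450a, named after their values were seen.

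The RefSeq entry of miR-214-5p has 17 bases, the shortest length among the 693 names with a length, whose median was 22, and only 7 names had an entry this short. The hairpin of Mir214 is shown because it places the undetected 5p entry beside a second counted miRNA, miR-3120. Capitals mark miR-214-3p on the right, and on the left the stretch whose reverse complement is miR-3120. The annotation places miR-3120 on the opposite strand.
Mir214 hairpin: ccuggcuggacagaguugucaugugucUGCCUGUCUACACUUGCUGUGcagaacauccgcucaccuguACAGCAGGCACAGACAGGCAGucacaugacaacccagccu

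miR-214-3p covers bases 69 to 89 of the 108, and the miR-214-5p entry bases 12 to 28. In a computed fold (RNAfold) 18 bases of miR-214-3p paired with bases in 27 to 47. Of these partners 17 lay in the stretch opposite miR-3120, bases 28 to 48, and 2 in the miR-214-5p entry, which shares 1 base with that stretch. The strand setting of the counting is not given in the sources used here, so reads of miR-3120 and reads of that stretch on the Mir214 strand cannot be told apart.

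**Figure D4:**
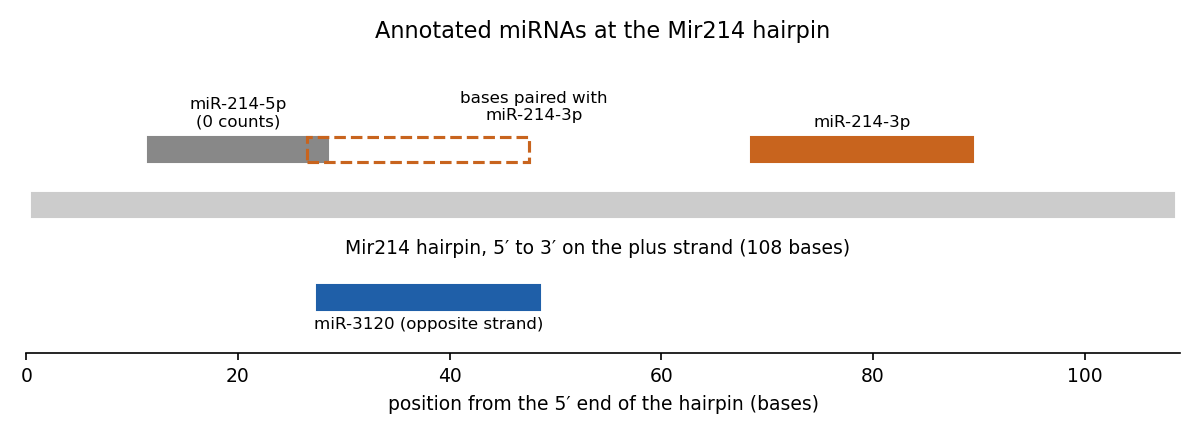
Positions of annotated miRNAs on the Mir214 hairpin (x axis, bases from its 5′ end), drawn to scale. The dashed box marks bases 27 to 47, which hold the predicted partners of miR-214-3p, and it overlaps miR-3120 on the opposite strand nearly in full and the miR-214-5p entry at its end.

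miR-3120, added for this position after the table had been read, had 5 to 21 counts a library and ranked 358 by mean CPM. It was at 2.93 ± 0.79 CPM in naïve, 3.04 ± 1.00 CPM in bPYX+GFP and 2.92 ± 0.55 CPM in bPYX+NT3 (SD, n = 6 each). It did not pass in any of the 3 comparisons (edgeR, adjusted p from 0.949 to 0.968), with standard errors of 0.23 to 0.27 on the log2 scale.

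The detected members were compared with each other over the 18 libraries. Their values in 1 library share its scaling and its rat. miR-199a-5p and miR-214-3p gave a Pearson's r of 0.563 (permutation p = 0.0133, adjusted p = 0.0400 over 3 pairs) and a Spearman's rho of 0.476 (permutation, adjusted p = 0.0703). Without the 2 libraries farthest from the median of miR-199a-5p, naïve replicate 2 and bPYX+GFP replicate 5, r was 0.186 (permutation p = 0.493). The value of r thus depended on those libraries, though leaving out the extremes of 1 member narrows its spread and can itself lower r. With all 18 libraries r was 0.653 over deviations from the group means (permutation p = 0.00288) and 0.668 with library size only (permutation p = 0.00164). Within groups of 6, r was 0.932 in naïve, 0.451 in bPYX+GFP and 0.291 in bPYX+NT3.

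Both arms of miR-199a gave an r of 0.493 (permutation p = 0.0338, adjusted p = 0.0507) and a rho of 0.517 (permutation, adjusted p = 0.0703). Without the same 2 libraries r was 0.513, and within naïve, bPYX+GFP and bPYX+NT3 it was 0.628, 0.644 and 0.416. miR-199a-3p and miR-214-3p gave an r of 0.372 (permutation p = 0.129) and a rho of 0.360. Without naïve replicate 3 and bPYX+NT3 replicate 2 this r was 0.265, and within the 3 groups it was 0.665, 0.204 and 0.177.

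The miRNAs most like each member were named by Spearman's rho over the 18 libraries, among 372 other rows tested, as a description. For miR-199a-5p they were miR-148b-5p at 0.651, miR-152-3p at 0.645, miR-872-5p at 0.593, miR-363-5p at 0.591 and miR-181d-5p at 0.585. For miR-199a-3p they were miR-148b-3p at 0.761, miR-511-3p at 0.703, miR-7b at 0.678, miR-224-5p at 0.643 and miR-345-5p at 0.641. For miR-214-3p they were miR-500-3p at 0.554, miR-195-5p at 0.540, miR-449a-5p at 0.527, miR-200c-3p at 0.521 and miR-872-3p at 0.511. By this measure the members themselves were not among the 5 nearest to each other. On the list of miR-199a-5p, miR-199a-3p came 8th and miR-214-3p 15th, and on that of miR-214-3p, miR-199a-5p came 8th and miR-199a-3p 23rd. On the list of miR-199a-3p, miR-199a-5p came 16th and miR-214-3p 45th. The order for miR-199a-5p changed when differences between groups were taken out. Over deviations from the group means, the rho of miR-199a-5p was 0.639 with miR-199a-3p and 0.552 with miR-214-3p, against 0.214 to 0.558 with the 5 miRNAs named for it.

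miRNAs of other cell types were summed in each library, to show what moved beside the members. miR-143 and miR-145, known from smooth muscle and pericytes, summed to 42116 to 69595 CPM in naïve, 45041 to 60012 in bPYX+GFP and 41557 to 59538 in bPYX+NT3. The highest of these sums was in naïve replicate 2, the library that also held the most miR-199a-5p and miR-214-3p and the highest sum of the endothelial list, 29104 CPM. Over the 18 libraries, Spearman's rho of the smooth muscle sum was 0.331 with miR-199a-5p, 0.067 with miR-199a-3p and 0.265 with miR-214-3p, as a description. The row of miR-143-3p alone gave the same values. In the same order of members, rho was 0.575, 0.560 and 0.476 for miR-145-5p and 0.443, 0.558 and 0.257 for miR-145-3p. For miR-143-5p it was 0.263, 0.490 and 0.344. The rho of the endothelial sum was 0.319, -0.385 and 0.061 in that order. All 4 rows of the smooth muscle list were tested, and none passed an adjusted p of 0.05 in edgeR. miR-145-5p was at 1446 ± 391 CPM in naïve, 1021 ± 139 CPM in bPYX+GFP and 1335 ± 368 CPM in bPYX+NT3 (SD, n = 6 each), with an edgeR adjusted p of 0.0742 for bPYX+GFP against naïve, where DESeq2 called 1 of the 4 rows against 5.91% of all rows, and of 0.442 for bPYX+NT3 against bPYX+GFP. Its log2 fold change was -0.50 ± 0.14 (SE) for bPYX+GFP against naïve and 0.40 ± 0.16 (SE) for bPYX+NT3 against bPYX+GFP. The edgeR unadjusted p of miR-145-5p was 0.0028 and 0.0249 in that order, where 21.2% and 8.58% of all rows were under 0.05. No other row of the list was. For bPYX+GFP against naïve, the other 3 rows gave 0.02 ± 0.11 for miR-145-3p, the other arm of its hairpin, 0.0096 ± 0.12 for miR-143-3p and -0.09 ± 0.17 for miR-143-5p (SE, edgeR adjusted p from 0.843 to 0.983). miR-143-3p, at 49485 CPM on average, made up most of the sum. The part of this list in the levels of miR-199a and miR-214 was not tested.

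The miR-29 family had 7 rows, of which 2 were tested, the 5p arms miR-29b-1-5p and miR-29a-5p. Rows for miR-29a-3p, miR-29b-3p, miR-29b-5p, miR-29c-3p and miR-29c-5p were at 0 in each library. The family sum, 11.0 to 20.3 CPM, thus holds those 2 arms and no 3p arm. Spearman's rho of this sum over the 18 libraries was -0.736 with miR-199a-5p, -0.261 with miR-199a-3p and 0.0072 with miR-214-3p, as a description from low counts. miR-29b-1-5p was at 7.90 ± 1.98 CPM in naïve, 10.7 ± 0.48 CPM in bPYX+GFP and 9.00 ± 2.16 CPM in bPYX+NT3 (SD, n = 6 each; edgeR, unadjusted p = 0.0097 and adjusted p = 0.122 for bPYX+GFP against naïve). miR-29a-5p was at 5.74 ± 0.77 CPM in naïve, 5.48 ± 1.40 CPM in bPYX+GFP and 8.26 ± 1.71 CPM in bPYX+NT3 (SD, n = 6 each; edgeR, unadjusted p = 0.0122 and adjusted p = 0.284 for bPYX+NT3 against bPYX+GFP). Their log2 fold changes, with miR-29b-1-5p first, were 0.44 and -0.07 for bPYX+GFP against naïve and -0.24 and 0.60 for bPYX+NT3 against bPYX+GFP, with opposite signs. They were 0.19 and 0.52 for bPYX+NT3 against naïve, with the same sign (miR-29a-5p, edgeR unadjusted p = 0.0066, adjusted p = 0.191). miR-140 and miR-455, known from cartilage and other connective tissue, had 4 rows, all tested. miR-140-3p gave a log2 fold change of -0.06 ± 0.10 and miR-140-5p of -0.0028 ± 0.08 (SE) for bPYX+GFP against naïve. miR-455-3p was at 179.6 ± 19.5 CPM in naïve, 211.4 ± 11.3 CPM in bPYX+GFP and 169.9 ± 21.5 CPM in bPYX+NT3 (SD, n = 6 each; edgeR, adjusted p = 0.134 and 0.217 for bPYX+GFP against naïve and bPYX+NT3 against bPYX+GFP). miR-455-5p was at 498 ± 70.3 CPM in naïve, 411 ± 64.7 CPM in bPYX+GFP and 373.9 ± 80.5 CPM in bPYX+NT3 (SD, n = 6 each). Both arms of miR-455 differed in opposite directions from naïve in bPYX+GFP, each with an unadjusted p under 0.05 in edgeR, as had 21.2% of all rows. The unadjusted p was 0.0026 for miR-455-3p in bPYX+NT3 against bPYX+GFP and 0.0079 for miR-455-5p in bPYX+NT3 against naïve, where 8.58% and 13.7% of all rows were under 0.05, and no row of either list passed after adjustment in edgeR or DESeq2.

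For endothelial cells, miR-126a-3p was at 25433 ± 2716 CPM in naïve, 24318 ± 2074 in bPYX+GFP and 23596 ± 3433 in bPYX+NT3 (SD, n = 6 each), and miR-126a-5p was at 0. The blood and immune list summed to 995 to 3166 CPM over the 18 libraries, and none of its 10 tested rows passed an adjusted or unadjusted p of 0.05 in edgeR, nor an adjusted p in DESeq2, in any comparison. The sensory neuron list summed to 33368 to 42975 CPM. Its strongest row, miR-182 of the miR-183 cluster known from sensory neurons, was at 22968 ± 2505 CPM in naïve, 26306 ± 1593 CPM in bPYX+GFP and 26215 ± 2085 CPM in bPYX+NT3 (SD, n = 6 each; edgeR, adjusted p = 0.173 and 0.349 against naïve). miR-96-5p, of the same cluster, gave log2 fold changes of 0.07 ± 0.08 and -0.04 ± 0.10 (SE) in bPYX+GFP and bPYX+NT3 against naïve. miR-128-3p, known from neurons more widely, was at 8738 ± 1205 CPM in naïve, 8133 ± 531 CPM in bPYX+GFP and 7558 ± 1539.7 CPM in bPYX+NT3 (SD, n = 6 each; edgeR, adjusted p = 0.548 and 0.456 against naïve). miR-138-5p was at 946 ± 106 CPM, 951 ± 117 CPM and 1157 ± 242 CPM in the same order (SD, n = 6 each; edgeR, adjusted p = 0.983 and 0.349 against naïve). The rows for miR-183-5p and miR-9a-3p were at 0. At an unadjusted p of 0.05 in edgeR, 2 of the list's 12 tested rows were higher in bPYX+GFP than in naïve, against 10.7% of all rows tested, 1 was higher in bPYX+NT3 than in bPYX+GFP, against 5.09%, and 3 were higher in bPYX+NT3 than in naïve, against 7.24%. None was lower at that threshold, and none passed after adjustment in edgeR or DESeq2. The glial list summed to 5656 to 12568 CPM with miR-338-3p, miR-338-5p and miR-219a-2-3p at 0, and the skeletal muscle list to 71.5 to 336 CPM with miR-1-3p, miR-1-5p, miR-133a-3p and miR-206-5p at 0. Of the 4 glial and 2 muscle rows tested, only miR-204-3p reached an unadjusted p of 0.05, higher in bPYX+GFP than in naïve, where 10.7% of all rows were, and none passed after adjustment in edgeR or DESeq2.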

How the data were processed

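Small RNA was sequenced from C6-8 DRG of 18 rats. Libraries were made with a small RNA kit, adapters were trimmed, and reads were aligned by the authors to Rnor_5.0 with Bowtie2 and counted with HTSeq. The deposited values are raw counts per mature miRNA, not normalized. The versions of Bowtie2 and HTSeq, the miRNA annotation release and the strand setting are not given in the sources used here. Library sizes and tests used the miRNA rows alone, 34.9% of reads and 4.70 M counts a library on average. The 5 HTSeq totals held the rest. The study left out 1 outlying library, which the file's header places at naïve replicate 1. It was kept here and left out in turn like the others.

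Pairwise comparisons used edgeR 4.0.16 in R 4.3.3 (TMM, quasi-likelihood test) on rows with more than 10 counts in at least 6 of 18 libraries, with Benjamini-Hochberg adjustment over all 373 rows. The code was tested on simulated data. Alternatives were DESeq2 1.42.0, the likelihood ratio test, other size factors, other filters, a fit of all 3 groups, a replicate block and each library left out. Ratios used counts + 0.5, log2 and exact permutation tests over all splits of 6 against 6. The ratio of the miR-214 arms could not be computed, so p-values were adjusted over 6 ratio tests, not 9. Correlations used log2 CPM (prior count 2) and 100000 permutations. Mature sequences and gene positions came from RefSeq tables of GRCr8, in which 688 of 753 rows matched a mature name.

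The members and lists were chosen with earlier results of these data known. Named miRNAs were the 4 members, the 5 tested miRNAs of highest Spearman's rho to each, and up to 4 rows of highest mean CPM in each list. Replicates are single rats, and the p-values of group comparisons set a difference between groups against the spread between rats. Those of correlations over 18 libraries come from shuffling the libraries.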

Additional observations from a re-analysis of the deposited data

Results flagged for a closer look

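Of 42 groups of 6 values looked at, covering the members, their ratios, miR-3120 and the summed lists, 4 held a library far from the other 5 by Dixon's criterion, where chance gives about 2.1. miR-3120 in bPYX+GFP replicate 6 was at 1.15 CPM, from 5 counts, and the next library was at 3.01 CPM. The cartilage and connective tissue list summed to 5746 CPM in bPYX+NT3 replicate 2, and the next highest library to 4312 CPM. The blood and immune list summed to 3166 CPM in bPYX+GFP replicate 4, and the next highest library to 2119 CPM. The sensory neuron list summed to 33368 CPM in bPYX+NT3 replicate 3, and the next lowest library to 39146 CPM. No group of miR-199a-5p, miR-199a-3p or miR-214-3p held such a library. Naïve replicate 2, at 2126 CPM of miR-199a-5p with the next naïve library at 1690 CPM, did not meet the criterion.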

How the results depend on the processing

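In no alternative did a member pass an adjusted p of 0.05. miR-199a-5p stayed lower than in naïve in each of them, in bPYX+GFP from -0.25 to -0.13 and in bPYX+NT3 from -0.24 to -0.11 (log2). The near-zero difference of miR-199a-3p changed sign. For bPYX+GFP against naïve it was 0.0033 with median-of-ratios factors, 0.0048 with library size only and 0.0055 in DESeq2. It was 0.042 with library size only and 0.021 with a filter of more than 100 counts for bPYX+NT3 against bPYX+GFP, and 0.047 and 0.018 for bPYX+NT3 against naïve. miR-3120 was at 0.035 with library size only in bPYX+NT3 against naïve. Leaving out each library in turn gave, for bPYX+GFP against naïve, -0.093 to 0.067 for miR-199a-3p, -0.12 to 0.040 for miR-214-3p and -0.038 to 0.20 for miR-3120. For bPYX+NT3 against bPYX+GFP it gave -0.030 to 0.050 for miR-199a-5p (p from 0.568 to 0.984), -0.060 to 0.073 for miR-199a-3p, -0.0012 to 0.16 for miR-214-3p and -0.24 to 0.019 for miR-3120. For bPYX+NT3 against naïve it gave -0.089 to 0.071 for miR-199a-3p, -0.053 to 0.095 for miR-214-3p and -0.11 to 0.11 for miR-3120.

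The count of rows with an adjusted p under 0.05 was 9 for bPYX+GFP against naïve, 22 in DESeq2, and 3 to 20 when each library was left out. For bPYX+NT3 against naïve it was 0, 1 with the likelihood ratio test, 1 in DESeq2, 1 in a fit of all 3 groups, and 0 to 4 with each library left out. At an unadjusted p, bPYX+NT3 against bPYX+GFP gave 32 rows, 54 without a filter and 24 to 54 with each library left out, and bPYX+NT3 against naïve gave 51 and 32 to 68. The log2 ratio of the miR-199a arms ran from 0.14 to 0.26 for bPYX+GFP against naïve and from -0.083 to 0.035 for bPYX+NT3 against bPYX+GFP. That of miR-199a to miR-214 ran from -0.21 to -0.092, from -0.12 to 0.0010 and, for bPYX+NT3 against naïve, from -0.24 to -0.18. The r of miR-199a-5p with miR-199a-3p was 0.628, 0.644 and 0.416 within the 3 groups, and that with miR-214-3p was 0.186 without 2 libraries, 0.653 over deviations from the group means, 0.668 with library size only, 0.932 within naïve and 0.451 and 0.291 within the injured groups. That of miR-199a-3p with miR-214-3p was 0.509 with library size only. The cause of these shifts was not tested.

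Whether equal replicate numbers pair the rats could not be decided from 6 pairs a comparison. The correlation of same-numbered libraries was over 0.1 in 1, 3 and 2 of 6 pairs in the 3 comparisons. It reached at most 0.308, 0.175 and 0.367, and 2 of 6 libraries matched their own number best in each. With a replicate block, miR-199a-5p in bPYX+GFP against naïve was at -0.21 (unadjusted p = 0.0379). miR-3120 rested on 5 to 21 counts a library. Whether depth, the annotation or the counting gave the zeros of miR-214-5p was not tested, and rows such as miR-29a-3p, miR-338-3p and miR-183-5p were at 0 throughout as well.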
